A study of Mus musculus with 6 samples.

Results

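The genes examined here encode the ligands, receptors, secreted regulators, relay proteins and DNA-binding factors of Wnt signalling. They were chosen by symbol alone, from the Wnt, Fzd, Lrp5 and Lrp6, Axin, Tcf7, Lef1, Apc, Dvl, Dkk, Sfrp, Ctnnb1, Rspo and Porcn families, and 55 of the 21883 protein-coding genes in the RefSeq table of GRCm38.p6 on the chromosomes used carried such a symbol. The rule used no peak value, although the gene families were picked with earlier results of these data known. For each gene, peaks of H3K4me3 (histone H3 carrying 3 methyl groups on lysine 4, found at active promoters) and of p300 (a histone acetyltransferase found at active promoters and enhancers) were counted at the gene ends, inside the gene and within 50 kb of an end.

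Wnt proteins are lipid-modified by Porcn, secreted, and bound at the cell surface by a Frizzled receptor together with Lrp5 or Lrp6. The signal passes through Dishevelled (Dvl) to the Axin and APC complex, which otherwise directs beta-catenin (Ctnnb1) to destruction, and spared beta-catenin joins TCF and LEF proteins on DNA, where p300 can act as its coactivator. In the neural crest this pathway favours the melanocyte fate, and Mitf, the master regulator of that lineage, is one of its known targets.

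The data are CUT&Tag peak lists from B16, a mouse melanoma cell line, labelled wild type. In CUT&Tag an antibody directs the Tn5 transposase to its target in intact cells, so that nearby DNA is cut and tagged for sequencing. One library for H3K4me3 and one for p300 were used, and the labels name no treatment and no clone. The other 4 libraries in the labels, all for H3K9me3, were not analysed here. Genotypes are therefore not compared, and no value below has a replicate check.

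On the nuclear chromosomes 27019 H3K4me3 and 6512 p300 peaks were listed, with median fold enrichments of 6.24 and 5.76. The fold enrichment and −log10 q of a peak are the authors' own values, used only to describe and rank peaks within a list. Reads at the summit, recovered from these values as described in the processing notes, had a median of 80.0 in the H3K4me3 list and 39.0 in the p300 list, with minima of 15 and 14. A gene without a peak therefore had none detectable at this depth. Of 8 melanocyte genes fixed as a check of the cell type, 7 had H3K4me3 at an end and 4 had p300 there. Among all protein-coding genes the shares were 50.5% and 13.5%. H3K4me3 lay at an end of 0 of 6 epithelial genes, of Col1a1 alone among 6 fibroblast genes, of Cd4 alone among 6 lymphocyte genes and of Cd68 alone among 5 macrophage genes. Counted in the gene or within 1 kb, the lists separated less. H3K4me3 was then at all 8 melanocyte genes and at 4 of 6 fibroblast genes, where 58.9% of all protein-coding genes had it. Among the epithelial genes it was at Cdh1, which also held p300, and the lymphocyte and macrophage counts stayed at 1 gene each.

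H3K4me3 was at an end of most relay, TCF and receptor genes and of few Wnt ligand genes, and p300 was at the end of a single gene. A gene end counted as marked when a peak lay over it or at most 1 kb away, and both annotated ends were used because the gene table gives no strand. By this count 26 of the 55 genes (47.3%, exact 95% binomial interval 33.7 to 61.2%, counting error only) had H3K4me3, where 50.5% of all protein-coding genes did. The total was thus near the level of all genes. Counts by role follow, and differences between roles were not tested. The relay proteins had it at 6 of 7 genes, the TCF and LEF factors at 3 of 4 and the receptors at 8 of 12, against 4 of 19 Wnt ligands and 2 of 8 secreted inhibitors. With so few genes the same intervals were wide. They were 42.1 to 99.6% for the relay, 19.4 to 99.4% for the TCF and LEF factors and 34.9 to 90.1% for the receptors. Each of these includes the 50.5% of all genes. For the Wnt ligands the interval was 6.05 to 45.6% and for the secreted inhibitors 3.19 to 65.1%. Porcn and 2 of 4 R-spondin genes were marked. p300 was at an end of Fzd7 alone, which is 1.82% of the 55 genes (0.0460 to 9.72%), where 13.5% of all protein-coding genes had it. Among the 26 genes with H3K4me3 at an end the share was 3.85% (0.0973 to 19.6%), where 26.5% of all such genes had p300. Neighbouring members can share chromatin and members were not drawn at random, so these intervals do not test a difference from all genes.

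**Figure D1:**
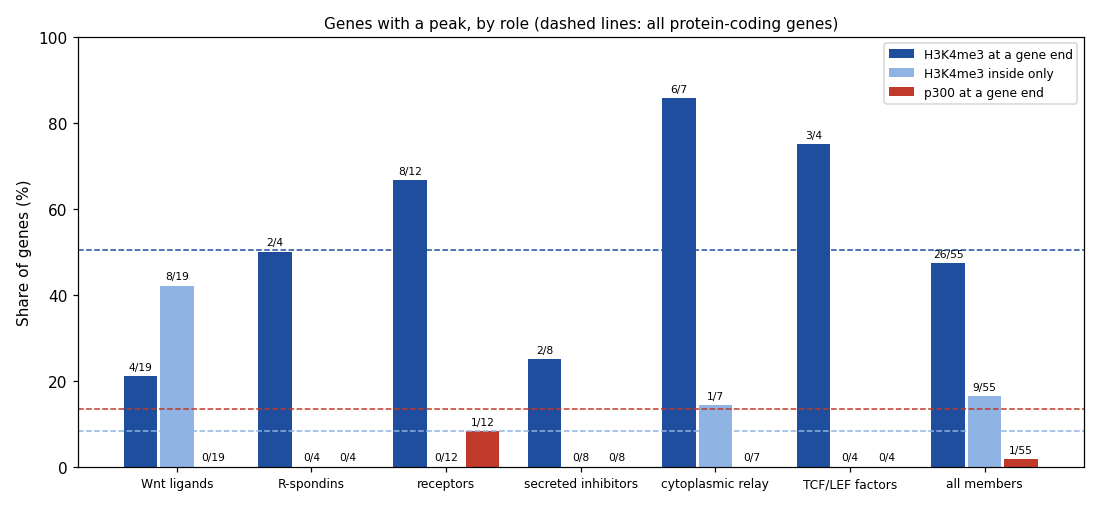
Share of genes in percent with H3K4me3 within 1 kb of an end (dark bars), with H3K4me3 inside the gene and not at an end (pale bars) and with p300 within 1 kb of an end (red bars), by role, with counts above the bars. Dashed lines give all protein-coding genes at 50.5%, 8.44% and 13.5%, and the Wnt ligands show more genes marked inside (8 of 19) than at an end (4 of 19).

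The promoters of 6 of the genes are printed here because they show marked and unmarked promoters over a wide range of CpG content. Each line gives the 250 bases before a start in the RefSeq promoter table (GRCm38.p6), 5′ to 3′ on the strand of the gene, with capitals for the CpG dinucleotides. The first 3 come from genes with H3K4me3 within 1 kb of the start, and the last 3 from genes without it. Fzd7 (chr1:59481897-59482146, plus strand) had 17 CpG and the only p300 peak at a gene end, Fzd1 (chr5:4758217-4758466, minus strand) had 12 CpG and the strongest H3K4me3 by fold at an end, and Tcf7l1 (chr6:72789046-72789295, minus strand) had 29. Wnt4 (chr4:137277385-137277634, plus strand) had 44 CpG and its nearest H3K4me3 peak 16560 bp after the start. Fzd10 (chr5:128600856-128601105, plus strand) had 37 CpG, and Dkk1 (chr19:30549497-30549746, minus strand) had 6, and neither gene had a peak of either list within 50 kb.
Fzd7: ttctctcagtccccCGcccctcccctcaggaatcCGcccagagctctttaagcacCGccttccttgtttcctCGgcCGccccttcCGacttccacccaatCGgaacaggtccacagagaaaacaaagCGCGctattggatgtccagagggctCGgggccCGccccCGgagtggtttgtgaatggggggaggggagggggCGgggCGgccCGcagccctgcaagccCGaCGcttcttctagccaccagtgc
Fzd1: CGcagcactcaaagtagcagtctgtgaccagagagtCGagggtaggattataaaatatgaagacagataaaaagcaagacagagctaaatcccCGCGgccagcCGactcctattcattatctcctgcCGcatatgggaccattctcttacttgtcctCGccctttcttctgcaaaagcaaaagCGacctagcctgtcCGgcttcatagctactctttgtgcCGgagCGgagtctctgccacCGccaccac
Tcf7l1: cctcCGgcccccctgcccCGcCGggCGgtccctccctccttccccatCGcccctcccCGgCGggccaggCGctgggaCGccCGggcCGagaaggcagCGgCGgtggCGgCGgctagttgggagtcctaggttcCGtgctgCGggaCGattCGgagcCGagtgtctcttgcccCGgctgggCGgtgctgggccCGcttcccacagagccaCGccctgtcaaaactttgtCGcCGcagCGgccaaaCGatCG
Wnt4: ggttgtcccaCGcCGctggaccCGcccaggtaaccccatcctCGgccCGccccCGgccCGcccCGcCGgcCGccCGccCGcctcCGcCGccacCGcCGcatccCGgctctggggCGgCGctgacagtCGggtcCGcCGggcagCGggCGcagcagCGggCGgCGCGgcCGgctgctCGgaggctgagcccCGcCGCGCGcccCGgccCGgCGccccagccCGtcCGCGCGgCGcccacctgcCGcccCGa
Fzd10: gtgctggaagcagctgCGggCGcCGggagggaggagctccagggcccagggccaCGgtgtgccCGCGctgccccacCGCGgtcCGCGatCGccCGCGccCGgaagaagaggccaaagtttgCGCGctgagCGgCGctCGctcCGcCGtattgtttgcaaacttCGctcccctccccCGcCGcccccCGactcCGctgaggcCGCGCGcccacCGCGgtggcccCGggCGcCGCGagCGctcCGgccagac
Dkk1: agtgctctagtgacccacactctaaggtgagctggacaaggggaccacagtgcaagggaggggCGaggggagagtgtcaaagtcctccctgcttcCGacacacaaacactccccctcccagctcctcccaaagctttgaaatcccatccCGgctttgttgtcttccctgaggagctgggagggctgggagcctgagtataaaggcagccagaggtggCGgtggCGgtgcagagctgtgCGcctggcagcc

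The Wnt ligand genes were marked inside the gene more often than at an end. H3K4me3 lay at an end of Wnt1, Wnt8a, Wnt9a and Wnt10a, and only inside the gene for 8 others, Wnt3, Wnt3a, Wnt4, Wnt5b, Wnt6, Wnt7b, Wnt10b and Wnt11. That is 42.1% of the ligands marked inside only (exact binomial interval 20.3 to 66.5%, counting error only), where 8.44% of all protein-coding genes were. Only a gene without an end peak can be marked inside only, so part of this gap follows from the end counts. Of the 15 ligands without an end peak, 8 were marked inside. Of all 21883 protein-coding genes, 11041 had an end peak and 1848 were marked inside only. The remaining 7 ligands, Wnt2, Wnt2b, Wnt5a, Wnt7a, Wnt8b, Wnt9b and Wnt16, lacked H3K4me3 both inside and at the ends. The 55 genes were somewhat longer than others, with a median of 22906 bp against 17170 bp for all protein-coding genes, and the part of length in the inside count was not tested.

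The end peaks of the ligands were modest. The peak of Wnt1, a canonical ligand (chromosome 15, 98789857 to 98793830), had the highest fold of the 4 at 5.74, with 43 reads at its summit and a width of 599 bp, and it began 975 bp after the start. Wnt9a (chromosome 11, 59306849 to 59333552) had the widest at 684 bp, with a fold of 4.44 and 79 reads. Wnt8a had a fold of 5.42 on 23 reads, and Wnt10a 2.46 on 60 reads. Neither gene had a listed strand, so these peaks may lie at the start or at the 3′ end. All 4 folds lay below the median of the whole H3K4me3 list, 6.24.

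Among the ligands marked only inside, Wnt5b (chromosome 6, 119432531 to 119544824), a ligand of beta-catenin-independent signalling, held 8 peaks with folds from 3.33 to 8.40. Its 2 peaks with the most summit reads, 286 and 167, lay within 1 kb of an end of Fbxl14, a gene inside the Wnt5b span, so they cannot be assigned to Wnt5b. Another of the 8, of fold 3.33, began 128 bp after one of the 3 Wnt5b starts in the promoter table. Wnt11 (chromosome 7, 98835084 to 98854747) had 1 peak, of fold 4.46 and 41 reads, which covered the later of its 2 listed starts and began 3006 bp after the earlier one. Wnt6 (chromosome 1, 74754342 to 74785322) had a peak of 1178 bp and fold 4.87 that began 298 bp after its listed start. The Wnt4 peak (fold 5.43, 54 reads) was the widest of all peaks inside the 55 genes, at 1737 bp. Wnt3 had a peak of fold 5.60 that lay 36230 bp after the start, Wnt10b one of 5.21, Wnt3a 2 of 4.17 and 3.83 and Wnt7b 2 of 4.91 and 3.43. The inside peaks of Wnt11, Wnt6 and Wnt5b thus came within 1 kb of a start that is not an annotated gene end. For Wnt7b no start was listed, so this could not be checked.

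Porcn, the acyltransferase that all Wnt ligands need for secretion (chromosome X, 8193846 to 8206548), was marked at both ends. The peak at the lower end had a fold of 9.80, 111 reads and a width of 1199 bp and also lay within 1 kb of an end of Ebp, and the peak over the upper end had a fold of 8.20 and 46 reads. The strand of Porcn was not in the promoter table, so the start could not be told from the 3′ end. The R-spondins are secreted proteins that raise the number of Frizzled receptors at the surface. Rspo1 had a peak of fold 6.32 and 49 reads upstream of its start and another of 6.71 and 34 reads near its 3′ end, and Rspo3 had peaks of 5.57 (1901 bp, 120 reads) and 3.71 (481 bp, 80 reads). Rspo2 and Rspo4 had no peak of either list within 50 kb.

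**Figure D2:**
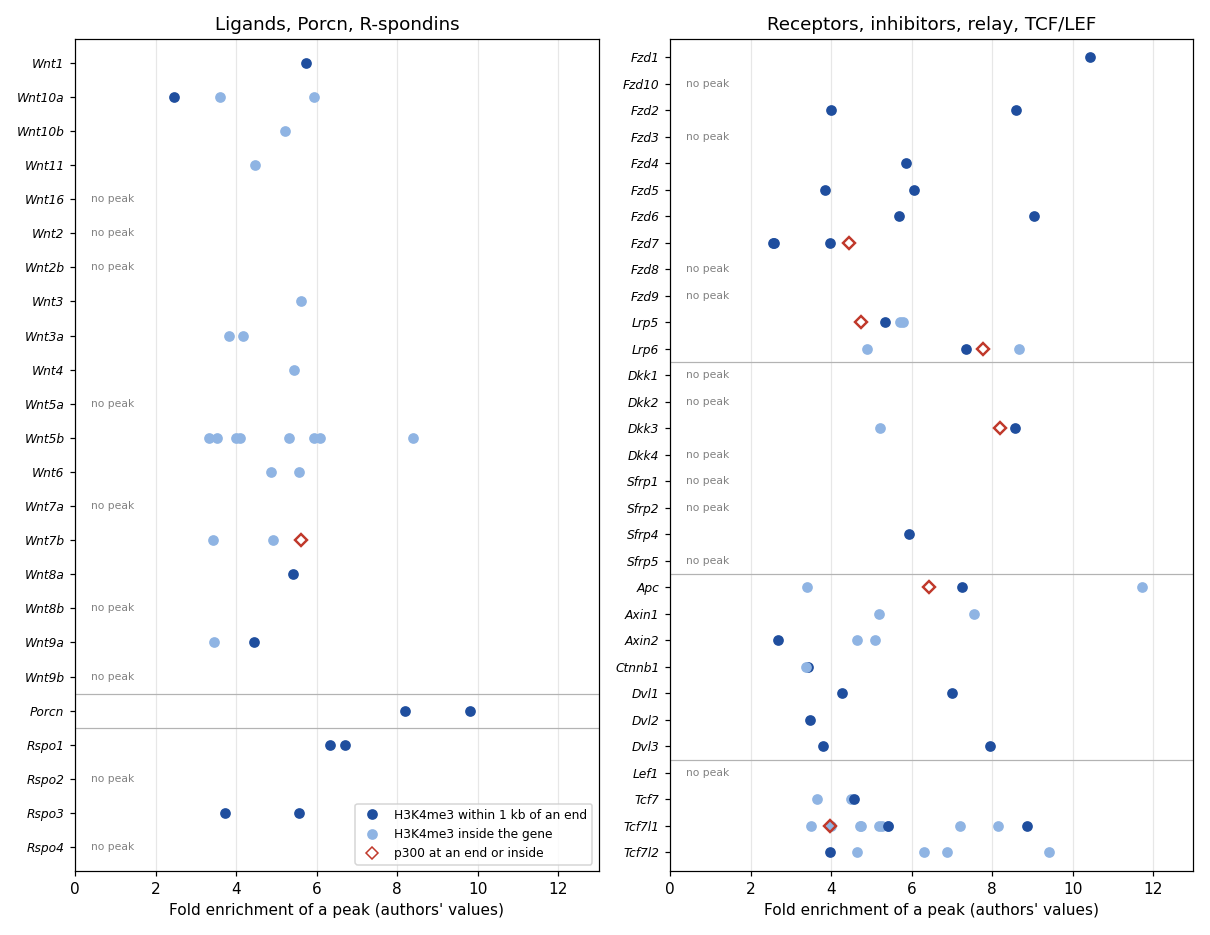
Fold enrichment (horizontal axis, authors' values) of every H3K4me3 peak within 1 kb of an end (dark circles) or inside the gene (pale circles) and of every p300 peak there (red diamonds), with a row for each of the 55 genes and lines between roles. The 7 p300 peaks belong to 7 genes with folds between 3.96 and 8.19, and 20 genes have no peak.

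The receptor genes divided into 8 with H3K4me3 at an end and 4 without any in the gene or within 1 kb. Fzd1 (chromosome 5, 4753839 to 4758216) had the highest fold at an end of all 55 genes, 10.43, with 138 summit reads in a peak of 880 bp over its start. Fzd6 followed with 9.04 (62 reads), Fzd2 with 8.60 (125 reads), Lrp6 with 7.35 (127 reads), Fzd5 with 6.07 (161 reads), Fzd4 with 5.87 (115 reads), Lrp5 with 5.33 (97 reads) and Fzd7 with 3.97 (357 reads). The order by fold was therefore not the order by reads, since the gene lowest by fold had the most reads. The 1904 bp peak of Fzd4 also lay within 1 kb of an end of Tmem135. Fzd3, Fzd8, Fzd9 and Fzd10 were the receptors without H3K4me3. Fzd8 and Fzd10 had no peak of either list within 50 kb, and Fzd9, with 42 CpG in its promoter, had its nearest H3K4me3 peak 7186 bp outside the gene.

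Fzd7, which encodes a Frizzled receptor (chromosome 1, 59482147 to 59486955), stood apart on several measures. Its 3 H3K4me3 peaks at the gene ends had 357, 207 and 168 summit reads, at the 99.8, 94.6 and 87.4 percentiles of the list, while their folds of 3.97, 2.56 and 2.57 lay at the 13.5, 1.35 and 1.39 percentiles. The background implied by these folds was 89.2, 80.4 and 64.8 reads, where the median of the list was 12.2. The peak at 3.97 was 2264 bp wide, the widest at an end of any of the 55 genes. The p300 peak (59481576 to 59482676) covered the start with a fold of 4.44, 80 summit reads and an implied background of 17.3, against a list median of 5.97, and it overlapped the H3K4me3 peak of 207 reads. The implied background was thus high in both libraries. It was computed from the reads and the fold, so it gives no separate view of the low folds, whose cause was not tested.

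**Figure D3:**
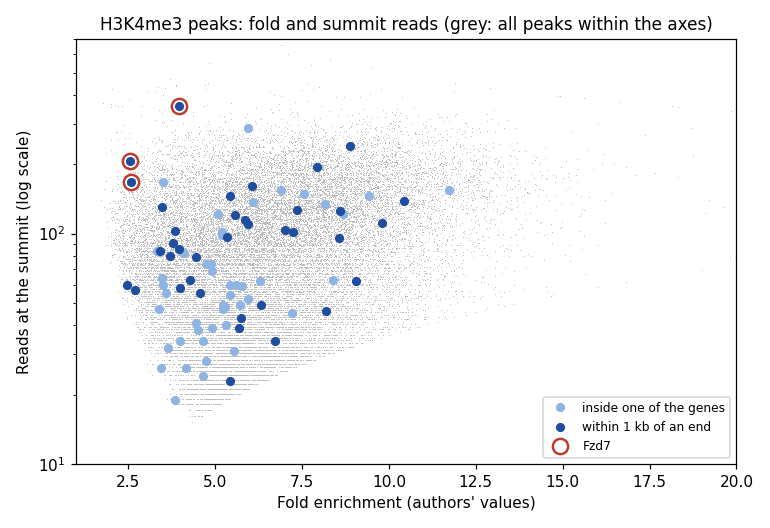
Fold enrichment (horizontal axis, authors' values) against reads at the summit (vertical axis, log scale) for the H3K4me3 peaks at an end of the 55 genes (dark), inside them (pale) and all others within the axes (grey). The 3 Fzd7 peaks, ringed, have 168 to 357 reads at folds of 2.56 to 3.97.

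Of the secreted inhibitors, which hold Lrp5 and Lrp6 (the Dkk proteins) or bind the ligands themselves (the Sfrp proteins), Dkk3 and Sfrp4 carried H3K4me3 at an end. Dkk3 (chromosome 7, 112116019 to 112159482), a divergent member of its family, had a fold of 8.56 with 96 reads in 1155 bp. Sfrp4 (chromosome 13, 19623175 to 19632825) had 5.94 with 110 reads in 962 bp. The other 6, Dkk1, Dkk2, Dkk4, Sfrp1, Sfrp2 and Sfrp5, lacked H3K4me3 at the ends and inside, and Dkk1, Dkk2 and Sfrp2 had no peak of either list within 50 kb.

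The relay genes were all marked by H3K4me3 in the gene or within 1 kb, as were 58.9% of all protein-coding genes. Dvl3 had the highest end fold of the group at 7.94 (1120 bp, 194 reads), followed by Apc with 7.24 (102 reads), Dvl1 with 7.01 (104 reads), Dvl2 with 3.48 (131 reads), Ctnnb1 with 3.42 (84 reads) and Axin2 with 2.69 (57 reads). Ctnnb1, which encodes beta-catenin (chromosome 9, 120933400 to 120960507), had the widest peak of the group, 1799 bp, and it began 546 bp after the nearer of its 2 starts. The peak of Dvl2 also lay within 1 kb of an end of Phf23. Axin1, the scaffold of the destruction complex (chromosome 17, 26131217 to 26195811), was the exception without an end peak, with peaks of fold 7.56 and 5.20 that lay 6750 and 7986 bp inside and within 1 kb of an end of a noncoding gene, Gm46600. No start was listed for Axin1, so whether these peaks lie at a start of Axin1 could not be told. Axin2 (chromosome 11, 108917828 to 108950783), a feedback inhibitor and a widely used target gene of the pathway, had a stronger peak inside the gene, of fold 5.09 and 122 reads, that began 1156 bp after its listed start. Apc (chromosome 18, 34220297 to 34322190) had an inside peak of fold 11.72 and 154 reads, 26880 bp from its nearer end and at no other annotated gene end. Its fold was the highest of the 85 H3K4me3 peaks at an end of or inside the 55 genes.

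Among the DNA-binding factors, Lef1 had no H3K4me3 and the 3 Tcf7 family genes did. Tcf7l1 (chromosome 6, 72626371 to 72789045), mostly a repressor of targets, had 2 end peaks, of fold 8.87 with 239 reads in 737 bp and of 5.42 with 145 reads, and 9 more inside the gene with folds from 3.49 to 8.15. Tcf7l2 (chromosome 19, 55741797 to 55933659) had an end peak of only 3.97 with 86 reads, and 4 peaks inside the gene. The inside peak highest by fold, 9.42 with 146 reads, lay 64732 bp from the nearer end. The inside peak with the most reads, 155 at a fold of 6.88, began 1749 bp after the earlier of its 2 listed starts. That peak also lay within 1 kb of an end of a noncoding gene, Gm31734. Tcf7 (chromosome 11, 52246527 to 52283383), best known from T cells, had an end peak of 4.57 with 55 reads. For Lef1 (chromosome 3, 131110297 to 131224357) the H3K4me3 peak nearest to any of its 4 listed starts lay 115035 bp away, beyond the 3′ end of the gene by 46972 bp.

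Genes without H3K4me3 of their own differed in what lay around them. Counted within 50 kb of an end, 46 of the 55 genes had H3K4me3 (83.6%, where 75.2% of all protein-coding genes did), and 9 had no peak of either list (16.4%, where 24.2% had none). The 9 were Wnt2, Wnt5a, Rspo2, Rspo4, Fzd8, Fzd10, Dkk1, Dkk2 and Sfrp2. For Wnt5a (chromosome 14, 28504543 to 28527448), a ligand linked to invasion in human melanoma, the nearest H3K4me3 peak was 995406 bp away and the nearest p300 peak 1440653 bp. Wnt2b (chromosome 3, 104944805 to 104961709) was the opposite case. It had no peak in the gene, yet 4 H3K4me3 peaks lay from 1773 to 31155 bp outside it at no annotated gene end. The one at 15578 bp had a fold of 15.48, at the 99.8 percentile of the list, on 118 reads, and the farthest of the 4, of fold 7.26 and 171 reads, overlapped a p300 peak of 6.27. Wnt16, likewise without a peak of its own, had one of fold 9.04 and 77 reads at a distance of 7285 bp and at no annotated gene end. For Wnt8b the nearest peaks with high folds, 9.89 and 11.49, belonged to the ends of Ndufb8 and Hif1an. Of 140 distinct H3K4me3 peaks outside the genes but within 50 kb, 62 lay at an end of another coding gene. In the whole list 11668 of 27019 peaks lay at an end of a coding gene. The whole list also holds 8868 peaks inside a gene and not at an end, so the shares are not of like sets.

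Starts with strand were listed for 36 of the 55 genes. Of these, 17 had H3K4me3 within 1 kb of a start (47.2%, where 52.8% of all genes with a listed start did), and in 7 of the 17, Fzd1, Fzd4, Fzd5, Fzd7, Dvl2, Tcf7 and Wnt11, a peak covered it. Of all genes with H3K4me3 within 1 kb of a listed start, 80.7% had a peak over one, a count added after the values of these genes were seen. In 6 the nearest peak lay upstream and in 4 downstream. Tcf7l1 had peaks from -831 to -95 and from 212 to 816 bp relative to its start, Dvl1 from -649 to -92 and from 590 to 926, and Dvl3 from -516 to -127 and from 349 to 1468. In these 3 genes the start itself lay in a gap between 2 peaks. All 15 genes with an end peak and a known strand had one at the 5′ end, and Rspo1 and Fzd7 had another at the 3′ end. The other 11 genes with an end peak had no listed strand. The counts by end, by direction and by gap are not given here for all genes. They cannot be called particular to these genes.

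**Figure D4:**
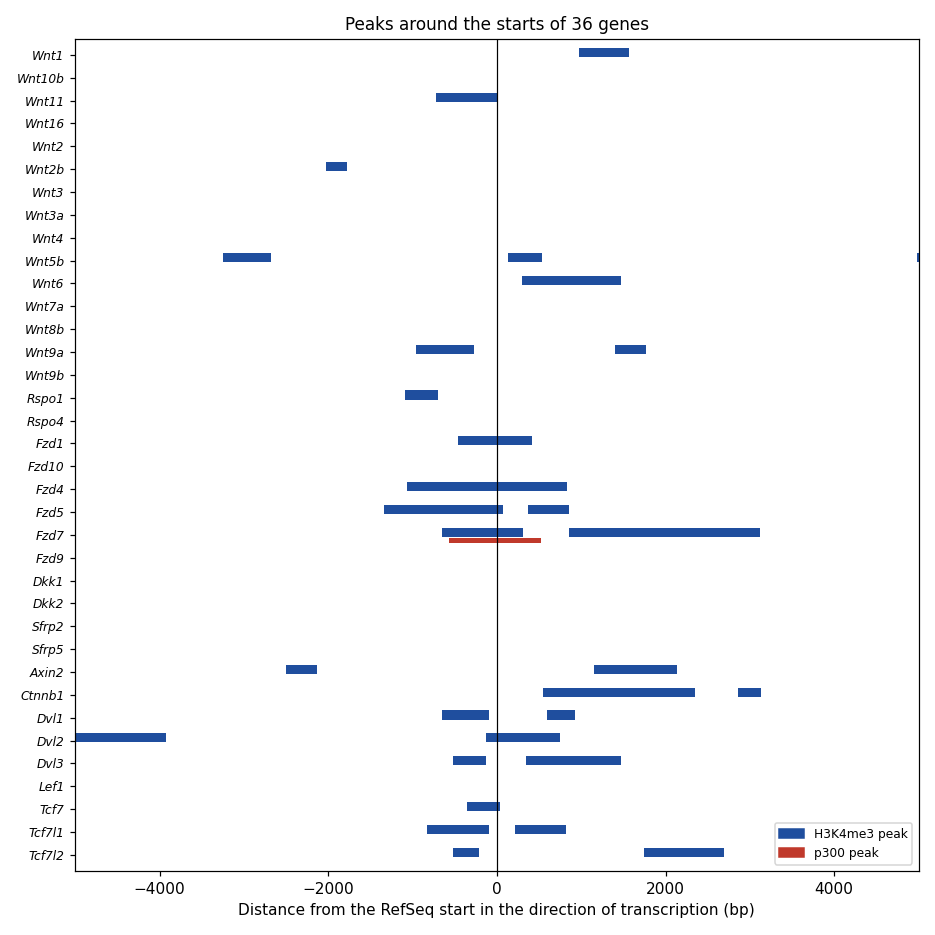
H3K4me3 peaks (blue) and p300 peaks (red) within 5 kb of a start for 36 genes, with distance from the start in bp in the direction of transcription. For genes with several starts the one nearest to an H3K4me3 peak is shown, and 7 genes have a peak over the start.

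The promoters held more CpG than those of other genes, yet fewer of them were touched by H3K4me3. The 250 bases before the 45 listed starts of 36 genes held a median of 22.0 CpG (quartiles 13 and 34), where all 21262 protein-coding promoters held 10.0 (quartiles 3 and 19). Starts of 1 gene, such as the 4 of Lef1, can share sequence. H3K4me3 touched the window from 250 bases before to 50 after the start in 11 of the 45 (24.4%), where 45.7% of all promoters were touched. Counted by gene, the roles differed, with 47.8% of all genes with a listed start touched. It was 1 of 15 Wnt ligands, 0 of 4 secreted inhibitors and 0 of 2 R-spondins. The receptors had 4 of 6, the relay genes 3 of 5 and the TCF and LEF factors 3 of 4, and these differences were not tested. A split by CpG count was chosen after the values were seen. With 20 or more CpG, 6 of 26 were touched (23.1%) where 70.9% of all such promoters were, and 13 of 26 had H3K4me3 within 1 kb of the start (50.0%), where 85.0% did. In the class with 30 or more CpG, 2 of 14 were touched, against 54.8% of all promoters in the class. Of the 13 promoters with 20 or more CpG and no H3K4me3 within 1 kb, 9 belonged to Wnt ligands. They held 44 CpG at Wnt4, 41 at Wnt3a, 37 at the earlier start of Wnt11, 36 at Wnt2b, 35 at the most upstream start of Wnt5b, 34 at Wnt7a, 22 at Wnt3 and Wnt9b and 20 at Wnt2. The ligand promoters with 20 or more CpG that had H3K4me3 within 1 kb were Wnt1 (23), Wnt6 (28) and Wnt9a (48). Ligands were also the largest role among the 26 promoters, so their number among the 13 is not read as a trait of ligands.

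**Figure D5:**
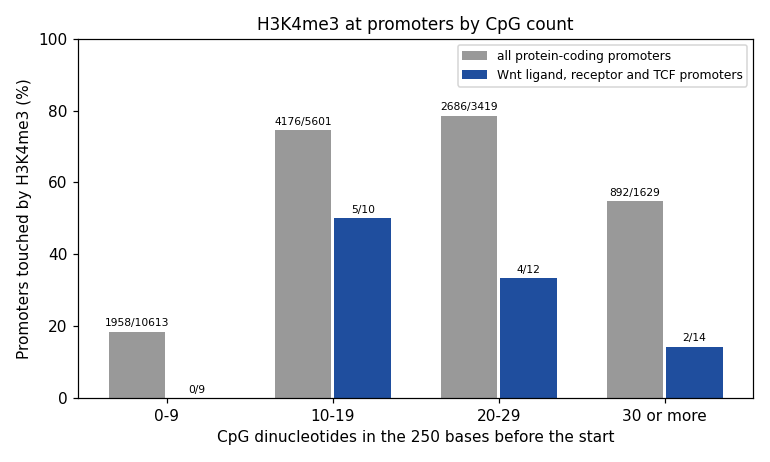
Share of promoters in percent touched by an H3K4me3 peak, by the number of CpG dinucleotides in the 250 bases before the start, for all protein-coding promoters (grey) and the 45 promoters of the Wnt ligand, receptor and TCF genes (blue), with counts above the bars. The blue bar is the lower in each class, for example 4 of 12 against 78.6% with 20 to 29 CpG.

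Short motifs were looked for in the same 250 bases on both strands. The TCF/LEF core as CTTTGAT was in 2 of the 45 promoters (4.44%, against 2.82% of all promoters), at Wnt11 and Wnt5b, and as CTTTGAA in 1 (against 4.05%), at Dkk1, where it lay 117 bases before the start. The E-box CACGTG was in 5 (11.1% against 6.63%), at Rspo4, Lef1, Fzd9, Wnt9a and Dvl2. CATGTG, the core of the MITF-bound M-box, was in 0 (against 10.1%), and TATAAA in 8 (17.8% against 11.6%). CTTTGAT and CTTTGAA share all but the last letter, CACGTG reads the same on both strands, and no motif contains another. In the printed promoters the motifs found were TATAAA 202 bases before the start of Fzd1 and 54 before that of Dkk1, and the CTTTGAA of Dkk1. These are matches of letters and were not read as binding sites.

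Of the 26 distinct p300 peaks at, inside or within 50 kb of these genes, 1 lay at a gene end, 6 inside and 19 outside. No such split of all p300 peaks is given here, so it cannot be called particular to these genes. Beside the Fzd7 peak, 6 genes held 1 p300 peak each inside the gene, and each of these overlapped an H3K4me3 peak that was also inside. Together 7 of the 55 genes (12.7%) had p300 in the gene or within 1 kb, where 20% of all protein-coding genes did. The Dkk3 peak (112138591 to 112139539) was the highest by fold and by reads, with a fold of 8.19 and 93 reads, 19943 bp from the nearer end, over H3K4me3 of only 5.21 and 47 reads. In Lrp6 (chromosome 6, 134446476 to 134566913) a p300 peak of 7.76 and 73 reads lay 28915 bp inside and overlapped H3K4me3 of 8.67 and 121 reads, which was higher by fold and lower by reads than the H3K4me3 at the end of that gene (7.35 and 127 reads). Apc had p300 of 6.43 but only 20 reads at its strong inside H3K4me3 peak. Wnt7b had 5.62 with 59 reads over H3K4me3 of 3.43 and 26 reads. Lrp5 had 4.75 with 21 reads, and Tcf7l1 had 3.96 with 24 reads. None of the 6 lay within 1 kb of another annotated gene end. In Wnt7b and Dkk3 the p300 summit held more reads than the H3K4me3 summit below it, although the p300 list was the one with the lower median.

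The H3K4me3 peaks at the ends of these genes also had lower folds, fewer reads and smaller widths than those at gene ends in general. The 37 distinct end peaks had a median fold of 5.57, a median width of 641 bp and a median of 97.0 summit reads, where all 11668 H3K4me3 peaks at gene ends had 6.71, 980 bp and 117 reads. Of the 37, 1 overlapped p300, where 21.7% of all end peaks did. Of the 48 peaks inside the genes, 6 did (20.4% of all inside peaks), with a median fold of 5.14 against 5.68 and 60.0 reads against 59.0. The lower H3K4me3 values stand beside the low p300 count at these ends, and their part in it was not tested. The 1 end peak that overlapped p300, at Fzd7, had 207 summit reads. Peaks without p300 at Fzd7 (357) and Tcf7l1 (239) had more, and all other end peaks had fewer. A single peak cannot show how reads and p300 go together.

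Within 50 kb of an end 21 of the 55 genes had a p300 peak (38.2%, where 43.6% of all protein-coding genes did), and no gene had more than 2. Of the 21, 14 had no p300 peak inside the gene or at its ends, and for Tcf7l1 the inside peak lay more than 50 kb from either end. Of 19 distinct outside peaks 8 lay at an end of another coding gene, for example at Marveld1 near Sfrp5 and at Fam234a near Axin1. The share of all p300 peaks at such ends is not given here. The highest by fold, at 9.62 with 53 reads, lay 36207 bp from Sfrp1 over H3K4me3 and at no annotated gene end, while Sfrp1 itself carried no H3K4me3. The nearest lay 3276 bp from Sfrp4 with a fold of 6.76, and it did not overlap H3K4me3. The neighbours Wnt6 and Wnt10a shared 1 p300 peak of fold 4.91. Over all 26 distinct p300 peaks near the genes 23 overlapped H3K4me3 (88.5%), close to the 85.5% of the whole list. Axin2, Ctnnb1 and Tcf7l2 had no p300 within 50 kb, with the nearest peaks at 60874, 66126 and 120664 bp from the gene.

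Other genes of the pathway, from a list of 48 that does not include any of the 55, are given beside the 55 with no test of a difference. H3K4me3 was at an end of 36 of them (75%, where 50.5% of all protein-coding genes were) and p300 at an end of 2 (4.17%, where 13.5% were), namely Gsk3a with a fold of 8.27 and Gsk3b with 6.97, which encode the kinases that mark beta-catenin for destruction. p300 was in the gene or within 1 kb of 14 (29.2%, where 20% of all protein-coding genes had it) and within 50 kb of an end of 25 (52.1%, where 43.6% had it), so these 2 shares lay above those of all genes and the share at the ends below. Of the target and feedback genes often used as readouts of beta-catenin activity, Lgr5 had H3K4me3 of fold 11.41, Znrf3 of 7.27 and Rnf43 of 6.51 at an end. Notum, Nkd1, Nkd2 and Sp5 had none there, although 4 p300 peaks of fold up to 6.52 lay near Notum. Wls, the carrier that takes Wnt proteins to the cell surface, had H3K4me3 of fold 30.04, a gene named after its value was seen. These genes were named to illustrate the list and carry no test.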

How the data were processed

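CUT&Tag was done on B16 cells with 1 µg of antibody, 18 PCR cycles and read pairs of 150 bp, per the labels' protocols. The submitters' processing notes name mm10 as build, and Bowtie2 2.2.5, Trim Galore, deepTools and Picard 2.22.4 as tools. The sources used here do not say which program called the peaks, against what control, or whether replicates were pooled. The authors deposited 1 peak list per antibody in the narrowPeak layout. The deposited fold was taken to be the ratio of a summit to a background, the deposited −log10 p and −log10 q as those of the peak, and the deposited score equalled the whole part of 10 times −log10 q in 27017 of 27019 and 6512 of 6512 peaks.

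Gene spans, starts and promoters came from RefSeq tables of GRCm38.p6, the assembly that mm10 is built on. All 55 genes matched by symbol, and 36 had a listed start. Exons were not in the tables, so peaks inside genes were not placed in exons or introns. Overlap meant at least 1 bp. Peaks on scaffolds and the mitochondrial chromosome were left out. A Poisson tail with a fold of (reads + 1) over (background + 1) gave whole summit reads within 0.002 in −log10 p for 99.91% of H3K4me3 and 99.71% of p300 peaks, and for every peak at or in the 55 genes. This form was inferred from the values, and the background may come from the same library. Counting was tested on simulated peaks. Python 3.11.15 with numpy 2.4.6, pandas 2.3.3 and scipy 1.17.1 was used.

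With 1 library per antibody no test between genes was made, and counts stand beside the same count over all protein-coding genes. Samples were grouped by title. Genes described with values are those with p300 at an end, the strongest and widest end peak per role, minorities of 6 or fewer in a role, genes marked only inside, and genes without any peak within 50 kb. Some others were added after their values were seen, to complete a group. Members and lists were chosen with earlier results of these data known.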

Additional observations from a re-analysis of the deposited data

How the results depend on the processing

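Of 51 recounts under other settings, 30 stayed within 1.5 times the reported count or within the interval of the reported median, and 21 did not. The count of genes with H3K4me3 at an end fell from 26 to 16 in the 50% of peaks with the highest −log10 q (29.1%, against 42.3% of all genes) and to 11 in the 50% with the highest fold (20% against 34.4%). It was 11 of 36 in the promoter window (30.6% against 47.8%) and 17 of 36 within 1 kb of a start, a setting added after seeing the data. Without peaks shared with another coding gene it was 24 (43.6%), now above the 37.0% of all genes. p300 at an end stayed at 1 gene except in the upper part by fold, where it was 0 (against 6.93% of all genes). In the upper parts by −log10 q and by fold, H3K4me3 in the gene or within 1 kb gave 20 and 14 genes, p300 there gave 4 and 3 (7.27% and 5.45%, against 10.5% and 10.9% of all genes), and p300 within 50 kb gave 12 and 11 (21.8% and 20%, against 26.6% and 26.9%). H3K4me3 in the gene or within 1 kb was thus above all genes in the whole list (63.6% against 58.9%) and below them in both upper parts (36.4% against 48.5%, and 25.5% against 42.3%). With distances of 20 and 100 kb, p300 was near 10 genes (18.2% against 30.1%) and 36 genes (65.5% against 55.6%), so the order against all genes turned with distance. The Wnt ligands with H3K4me3 at an end were 0 in both upper parts, 2 with the summit inside the window (10.5% against 47.7%), 2 with a window of 500 bp (10.5% against 47.5%), 6 with 2 kb (31.6% against 53.5%), 1 of 15 in the promoter window (6.67% against 47.8%) and 5 of 15 within 1 kb of a start (33.3% against 52.8%). The receptors were 4 in the upper part by fold (33.3% against 34.4%), and 4 of 6 in the promoter window and within 1 kb of a start. Fewer peaks, other distances or fewer genes counted change the counts by construction, and the cause of the turns in order against all genes was not tested. No paired analysis was possible because each antibody had 1 library. Depth limits every statement on a gene without a peak, since read totals are unknown and the smallest listed summits held 15 and 14 reads.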
